A study of Mus musculus with 25 samples.

Results

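The genes described here encode proteins of the mitochondrial ribosome and were taken as those whose symbol in the annotation of the array begins with Mrpl or Mrps followed by a number. There were 76 of them among 18193 measured genes, 47 with an Mrpl and 29 with an Mrps symbol. Each was read through the brightest of its probe sets over 25 arrays. A total of 156 probe sets carried the symbol of 1 of these genes alone, and 34 genes had 1 such probe set while 42 had several, up to 8. A further 4 probe sets that also name a second gene were left out, so that Mrpl30 and Mrpl53 have no value here.

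The cells were RAW 264.7, an established mouse line with the traits of a macrophage, and the data describe this line alone. They had been exposed for 6 h to hypochlorous acid (HOCl), the oxidant that myeloperoxidase makes from hydrogen peroxide and chloride, at a dose of 0 mM, 0.14 mM, 0.35 mM, 0.7 mM, 1.4 mM, 2.1 mM, 2.8 mM or 3.5 mM added to the medium. There were 4 replicates at 0 mM and 3 at every other dose, each on 1 Affymetrix mouse array, and the submitters call them biological without saying whether they were cultured on separate days. The comparisons ask how transcript signals change with dose.

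Mitochondrial ribosomes translate the few proteins that mitochondrial DNA encodes, which are core subunits of the respiratory chain and of ATP synthase. Their RNAs come from mitochondrial DNA, but all of their proteins are encoded in the nucleus, made on cytosolic ribosomes and imported. The large subunit forms the peptide bond, and the small subunit holds and decodes the messenger RNA. Some of the proteins have counterparts in bacterial ribosomes and others were gained by mitochondria, and inherited loss of several of them causes human disorders of mitochondrial translation.

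The authors deposited log signals scaled to a median of 0 on every array. Base 2 was inferred from their span, so that every fold rests on it. A change is the difference between the means of 2 doses, given with the standard error (SE) of a limma fit to all 25 arrays (n = 4 at 0 mM and n = 3 at other doses), and a gene was called when its p adjusted over all 45037 probe sets was under 0.05. The p-values measure the spread between arrays of a dose, pooled over doses. Since each array has a median of 0, a change is relative to the other transcripts of the culture, and fewer cells that express a gene cannot be told apart from less of its RNA per cell.

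Macrophage markers were present: the mean of 10 of them lay between 4.57 and 5.19 on every array, with Lyz2, the macrophage lysozyme, at 8.18 and Mertk, a receptor for dying cells, at -1.08. The mean of 8 measured markers of other cell types lay between -0.34 and 0.07, with Epcam the highest at 1.49, and of these 8 only Ms4a1, of B cells, was called in any of the 13 comparisons, higher at 2.1 mM against 0 mM by 0.57 (limma adjusted p = 0.0203). Of the 10 macrophage markers none was called at 3.5 mM against 0 mM, while Fcgr1 and Ptprc were higher at 3.5 mM against 2.8 mM, by 1.72 and 0.47. At lower doses against 0 mM, 1 was higher and 1 lower at 0.35 mM, 1 lower at 1.4 mM, and 2 lower at both 2.1 and 2.8 mM. Cd14 changed by 0.66 and Adgre1 by -1.29 at 0.35 mM, and Adgre1 by -1.07 and Fcgr1 by -1.38 at 2.1 mM. The F test over doses called 4 of the 10. The part of these markers in the results was not tested. A set of 8 probe sets for bacterial control transcripts split the arrays into 11 with means of at most 1.12 and 14 with means of at least 1.75. The lower level held every array of 0 mM and 0.14 mM with replicates 1 and 2 of 0.35 mM and of 0.7 mM, and the higher level held every array from 1.4 mM up. The labels name no batch. Comparisons of doses from 1.4 mM up with 0 mM therefore hold dose and spike level together, and these cannot be told apart there, whereas all arrays of 2.8 and 3.5 mM had the higher spike level. Replicate 1 of 0 mM stood apart: 10 of the 76 genes were more than 1 log2 unit below their lowest value on the other 24 arrays there, as were 5.16% of the 7398 genes at least as bright as the dimmest of the 76. On no other array did any of the 76 lie so far below or above the rest.

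Promoters are shown for 4 of the genes because 3 of them were among the clearest rises at 3.5 mM against 2.8 mM while the fourth had the highest p in the test over doses together with Mrpl18, and because their DNA holds, or lacks, motifs known from promoters of genes for mitochondrial proteins. These 4 were chosen after their values were seen. RefSeq entries on GRCm38.p6 gave 300 bases, 250 before and 50 after the start, for 67 of the 76 genes. Each is printed 5′ to 3′ on the strand of the gene, with matches in capitals. The motifs searched were GCGCA followed by any base and GCGC for nuclear respiratory factor 1 (NRF1), CCGGAAG for ETS factors such as GA-binding protein and AAGATGG for YY1, each on both strands, and matches of different motifs may overlap. Mrpl43 lies on the minus strand at chr19:45006393-45006692 and holds 2 ETS matches, Mrps24 on the minus strand at chr11:5707652-5707951 holds 1 YY1 match, Mrpl14 on the plus strand at chr17:45686099-45686398 holds 1 NRF1 match, and Mrpl40 on the minus strand at chr16:18876588-18876887 holds none.
Mrpl43: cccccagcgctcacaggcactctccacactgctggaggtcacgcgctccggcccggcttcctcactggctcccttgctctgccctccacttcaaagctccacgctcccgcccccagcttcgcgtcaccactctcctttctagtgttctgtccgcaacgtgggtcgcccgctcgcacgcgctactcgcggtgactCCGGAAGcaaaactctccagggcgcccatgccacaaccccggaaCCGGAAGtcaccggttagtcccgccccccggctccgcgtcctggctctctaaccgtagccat
Mrps24: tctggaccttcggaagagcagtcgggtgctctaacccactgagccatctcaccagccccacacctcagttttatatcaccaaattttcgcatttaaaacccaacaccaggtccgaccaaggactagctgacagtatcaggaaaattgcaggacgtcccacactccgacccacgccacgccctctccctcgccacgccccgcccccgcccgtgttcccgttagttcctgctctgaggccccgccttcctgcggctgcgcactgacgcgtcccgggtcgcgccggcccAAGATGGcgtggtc
Mrpl14: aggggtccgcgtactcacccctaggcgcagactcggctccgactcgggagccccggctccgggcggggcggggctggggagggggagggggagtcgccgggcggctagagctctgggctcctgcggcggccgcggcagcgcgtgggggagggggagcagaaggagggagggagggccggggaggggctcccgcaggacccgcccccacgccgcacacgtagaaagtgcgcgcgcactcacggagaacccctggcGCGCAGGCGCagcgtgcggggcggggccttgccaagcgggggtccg
Mrpl40: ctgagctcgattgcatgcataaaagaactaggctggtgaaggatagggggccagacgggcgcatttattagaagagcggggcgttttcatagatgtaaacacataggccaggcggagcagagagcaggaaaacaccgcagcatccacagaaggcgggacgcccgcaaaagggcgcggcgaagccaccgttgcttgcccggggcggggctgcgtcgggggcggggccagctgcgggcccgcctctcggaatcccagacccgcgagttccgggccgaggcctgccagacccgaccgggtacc
Among the 67 genes the ETS motif was found in 25 (37.3%), against 15% of 14452 measured genes with an entry and 9.93% of all 27025 genes with an entry. Genes of the 67 with several entries, such as Mrpl48 and Mrps16, counted when any of their entries matched. The YY1 motif was found in 13 (19.4%), against 7.54% of measured genes and 7.28% of all genes with an entry. The NRF1 motif was found in 12 (17.9%), against 8.61% of measured genes and 5.19% of all genes with an entry. The 4 printed promoters do not stand for the whole set. Of 28 genes with an entry that were called higher at 3.5 mM in either comparison with 0 or 2.8 mM, 42.9% held the ETS, 14.3% the YY1 and 10.7% the NRF1 motif, against 33.3%, 23.1% and 23.1% of the other 39, with no test. A match is a run of letters and was not tested as a binding site.

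At 3.5 mM against 0 mM 23 of the 76 genes rose, none was called lower and 53 did not pass the test. The called share was 30.3%, whereas 9.37% of all genes were called, 4.54% higher and 4.83% lower. The log2 change was above 0 for 75 of the 76 with a median of 0.42, against 67.3% of all genes and a median of 0.10. Among the 7398 genes at least as bright as the dimmest of the 76, 16.1% were called and 6.2% were called higher. For 31 of the 76 every array of 3.5 mM lay above every array of 0 mM, and for none below. No such count over all genes is given here, so how far it is particular to the 76 is not known.

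Averaged over the 76 genes, the signal was 4.66, 4.30 and 4.29 on the arrays of 3.5 mM, against 3.81, 3.88, 4.15 and 3.95 on those of 0 mM. All 3 arrays of 3.5 mM were above all of 0 mM, and replicate 1 was the highest of the 25 arrays. At 2.8 mM the averages were 4.32, 4.02 and 3.93, so that replicate 1 of 2.8 mM lay level with the lower arrays of 3.5 mM. From 0.14 to 2.1 mM all averages lay between 3.78 and 4.18, within or close to the range of 0 mM. The highest of the 8 dose means was at 3.5 mM for 61 of the 76 genes, with no such count for all genes given here.

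**Figure D1:**
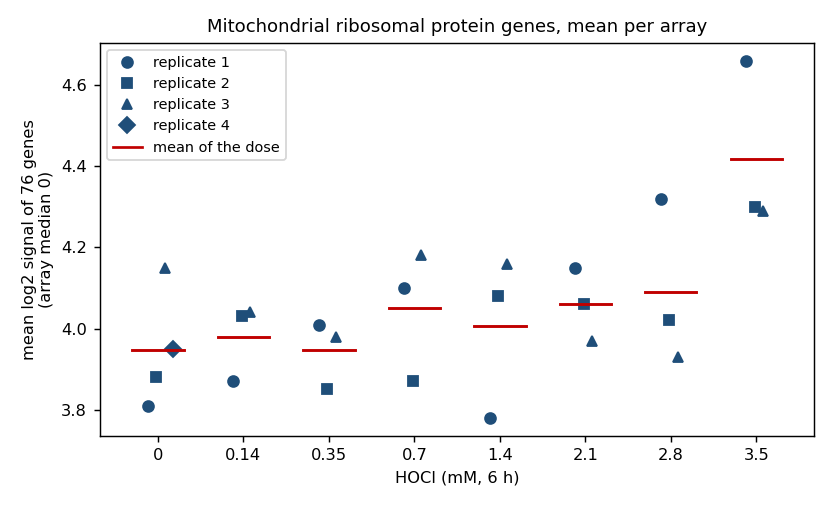
Mean log2 signal of the 76 genes on each array (vertical axis, array median 0) by HOCl dose (horizontal axis, low to high, equal steps). Points are arrays, with a symbol per replicate number, and red bars are dose means. The arrays of 3.5 mM at 4.66, 4.30 and 4.29 lie above all arrays of 0 mM, and replicate 1 of 2.8 mM at 4.32 lies level with them.

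The count at 3.5 mM against 0 mM rested on single arrays and moved with the spike level. It was 8 without replicate 1 of 3.5 mM or in a fit to only these doses, 13 without its replicate 2 and 14 without replicate 2 of 0 mM, and 1, Mrps30, with spike level as a term in the fit, whose part in the result cannot be told apart from that of dose. The median change over the 76 was 0.33 without replicate 1 of 3.5 mM and 0.33 with the spike term.

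The step from 2.8 to 3.5 mM compares arrays that all have the higher spike level. At 3.5 mM against 2.8 mM 21 of the 76 were called higher and none lower, which is 27.6%, whereas 14.1% of all genes were called, 8.81% higher and 5.33% lower. The arrays of 3.5 mM are shared with the comparison against 0 mM, and the genes called are not the same set: Mrpl4, Mrpl43 and Mrps35 were called here and not against 0 mM, and Mrpl35, Mrpl49 and Mrps22 against 0 mM and not here. The change was above 0 for 67 of the 76 with a median of 0.30, against 64.3% of all genes and a median of 0.07. For 28 of the 76 all arrays of 3.5 mM lay above all arrays of 2.8 mM, with no such count for all genes. Of genes at least as bright as the dimmest of the 76, 26.8% were called, 15.4% higher. With spike level as a term all 21 were called, and in a fit to the 14 arrays of the higher spike level 18 of them. Neither fit can change the difference between these doses, whose arrays share that level. These counts therefore do not test the part of the spike level. A fit to only the arrays of these doses called 7. The count was 20 without replicate 1 of 3.5 mM, with 18 of the 21 among them and with 2 others, Mrps6 at -0.86 and Mrpl20 at -1.03, called lower, and it was 11 without replicate 2 or without replicate 3 of 2.8 mM.

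Steps at lower doses gave few calls. Between 0.35 and 0.14 mM 2 genes were lower and none higher (4.03% of all genes called, 2.64% lower). Of genes at least as bright as the dimmest of the 76, 7.6% were called. The 2 were Mrpl23 at -0.69 and Mrpl14 at -0.48. That count was 0 without any 1 array of 0.14, 0.35 or 2.1 mM, replicate 1 of 0.7 mM or replicate 2 of 2.8 mM, 1 without replicate 2 of 3.5 mM and 4 without replicate 1 of 2.8 mM. None of the 76 was called at 0.7 against 0.35 mM (0.0% of all genes), 1.4 against 0.7 mM (0.0%), 2.1 against 1.4 mM (0.0%) or 2.8 against 2.1 mM (0.033%), and at an unadjusted limma p under 0.05 these steps held 4, 1, 0 and 0 genes. No unadjusted counts over all genes are given beside them. An F test over the 7 doses called 28 of the 76 (36.8%), against 28.0% of all genes. The share of genes at least as bright as the dimmest of the 76 is not given for this test. How far the called share is particular to the 76 is therefore not known. For 27 of these 28 the highest dose mean was at 3.5 mM, and for Mrpl47, a protein at the exit of the peptide tunnel, at 2.8 mM. In all, 33 of the 76 were called in none of the 13 comparisons and not by the F test, among them Mrpl12, Mrpl20 and Mrps12. How many of all genes were called nowhere is not given here, so the 33 describe this set only.

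Genes with the lowest p in the F test dipped at middle doses or stayed level and stood highest at 3.5 mM. Mrps30, a protein of the large subunit despite its symbol, had signals of 4.64, 4.55 and 4.66 at 3.5 mM, against 4.41, 4.34 and 4.23 at 2.8 mM. Its arrays at 0 mM read 4.30, 4.06, 4.14 and 4.11 and those at 0.35 mM 3.87, 3.72 and 3.88. The 3.5 mM arrays lay above all others, and the 0.35 mM arrays below all of 0 mM. The change was 0.46 ± 0.0779 (SE) at 3.5 mM against 0 mM (limma adjusted p = 0.000693), 0.29 ± 0.0833 at 3.5 mM against 2.8 mM (adjusted p = 0.0278) and -0.33 ± 0.0779 at 0.35 mM against 0 mM (adjusted p = 0.0176).

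Mrpl14, a large subunit protein with a bacterial counterpart whose promoter with an NRF1 match is printed above, read 3.59, 3.78 and 3.99 at 3.5 mM, against 3.10, 2.93 and 2.79 at 2.8 mM. At 0.35 mM it read 2.75, 2.70 and 2.80, against 3.64, 3.26, 3.07 and 3.51 at 0 mM. The groups of each pair did not overlap, while 1 array of 3.5 mM lay below the highest of 0 mM. Its change was 0.85 ± 0.128 at 3.5 mM against 2.8 mM (limma adjusted p = 0.000302), 0.41 ± 0.12 at 3.5 mM against 0 mM (adjusted p = 0.0325) and -0.62 ± 0.12 at 0.35 mM against 0 mM (adjusted p = 0.00784).

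Mrpl4, another large subunit protein with a bacterial counterpart, had the deepest dip. Its signals were 4.10, 4.04 and 4.00 at 2.1 mM, against 4.80, 4.82, 4.84 and 4.85 at 0 mM, with no overlap and little spread in either group. The change was -0.78 ± 0.125 (limma adjusted p = 0.00069), and at 0.35, 1.4 and 2.8 mM it was -0.46, -0.70 and -0.64, all called. At 3.5 mM the arrays read 4.81, 4.79 and 5.26, against 4.56, 4.05 and 3.94 at 2.8 mM, a change of 0.77 ± 0.134 (adjusted p = 0.00102). Against 0 mM the change at 3.5 mM was 0.13 ± 0.125 and missed the threshold (adjusted p = 0.555).

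Mrps24, the small subunit protein that corresponds to bacterial S3 at the entry of the messenger RNA and whose promoter holds a YY1 match, read 5.30, 4.96 and 5.21 at 3.5 mM, against 4.65, 4.22 and 4.04 at 2.8 mM. The change was 0.86 ± 0.139 (limma adjusted p = 0.000594), and 0.60 ± 0.13 against 0 mM (adjusted p = 0.00543), where the arrays read 4.71, 4.43, 4.60 and 4.49. Both sets lay below all 3 arrays of 3.5 mM. Mrps16, the counterpart of bacterial S16, read 4.84, 4.81 and 5.04 at 3.5 mM, against 4.51, 4.22 and 4.04 at 2.8 mM, again with no overlap, a change of 0.64 ± 0.105 (adjusted p = 0.000615).

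Mrpl58, which also releases peptides from stalled ribosomes, read 4.51, 4.61 and 4.48 at 3.5 mM, against 4.03, 3.64 and 3.52 at 2.8 mM and 3.79, 3.97, 3.84 and 4.16 at 0 mM. The 3.5 mM arrays lay above all others. The change was 0.80 ± 0.13 against 2.8 mM (limma adjusted p = 0.000572) and 0.59 ± 0.121 against 0 mM (adjusted p = 0.00361).

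**Figure D2:**
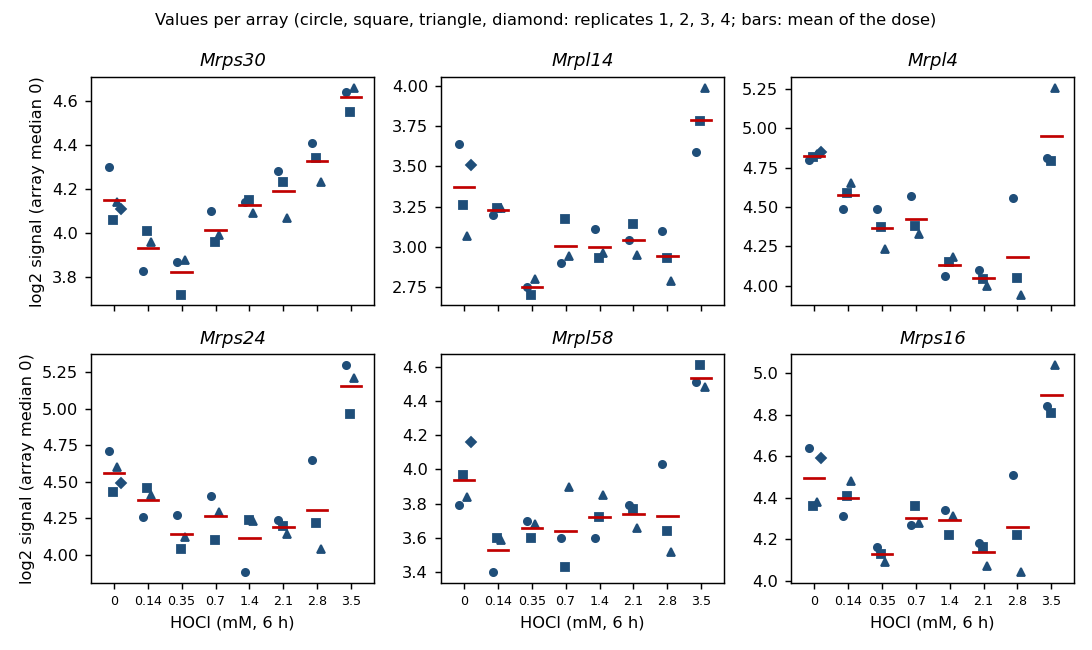
Log2 signal on each array (vertical axes, array median 0, a scale per panel) by HOCl dose (horizontal axes) for the 6 genes with the lowest p in the F test. Points are arrays, with a symbol per replicate number, and red bars are dose means. In every panel the highest bar is at 3.5 mM, and Mrpl4 falls to 4.05 at 2.1 mM before 4.95 at 3.5 mM.

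Mrps35 and Mrpl43 had the largest called changes at 3.5 mM against 2.8 mM. Mrps35, a small subunit protein without a bacterial counterpart, read 4.28, 4.16 and 4.30 at 3.5 mM, against 3.98, 2.99 and 2.93 at 2.8 mM, where replicate 1 stood well above the others. The change was 0.95 ± 0.179 (limma adjusted p = 0.00187), and without replicate 1 of 2.8 mM it was 1.29. Mrpl43, a large subunit protein gained by mitochondria, read 4.88, 4.93 and 4.97, against 4.04, 4.01 and 3.91 at 2.8 mM, with a gap far wider than either group. Its change was 0.94 ± 0.143 (adjusted p = 0.000369), and at 2.8 mM against 0 mM it was -0.64 ± 0.134 (adjusted p = 0.00421). Neither was called at 3.5 mM against 0 mM, where the change was 0.52 ± 0.167 for Mrps35 (adjusted p = 0.054) and 0.29 ± 0.134 for Mrpl43 (adjusted p = 0.18).

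Calls against 0 mM at the doses below 3.5 mM went both ways. At 0.14 mM (0.011% of all genes called) and 0.7 mM (0.165%, 0.0165% lower) none of the 76 was called, and 8 and 11 had an unadjusted limma p under 0.05. The share of all genes with such a p is not given here, so these 2 counts cannot be judged against it. At 0.35 mM 5 were lower and none higher (7.67% of all genes, 5.56% lower). Of genes at least as bright as the dimmest of the 76, 13.2% were called there, 3.16% higher. The 5 were Mrpl14, Mrpl9, Mrpl4, Mrps16 and Mrps30, with changes from -0.62 to -0.33. That count was 0 without replicate 2 of 0.35 mM, 2 without its replicate 3 or replicate 4 of 0 mM, 3 without replicate 2 of 0 mM, and 9 without replicate 3 of 0 mM or replicate 1 of 2.8 mM. Without replicate 3 of 0 mM 2 genes were also called higher there, and 1 without replicate 3 of 0.7 mM.

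At 1.4 mM 4 were lower and none higher (8.91% of all genes, 5.06% lower). Of genes at least as bright as the dimmest of the 76, 16.8% were called there, 8.0% higher. The 4 were Mrpl4, Mrps35, Mrps24 and Mrps18a, with changes from -0.70 to -0.40. The count was 1 without replicate 4 of 0 mM or replicate 1 or 2 of 1.4 mM, and 2 without replicate 2 or 3 of 0.14 mM or any 1 array of 2.1 mM. Without replicate 3 of 0 mM 4 genes were called higher, and 1 without replicate 2 of 0.7 mM or replicate 1 of 3.5 mM. At 2.1 mM 4 were higher and 6 lower, 13.2% against 15.5% of all genes (7.32% higher, 8.2% lower). Of genes at least as bright as the dimmest of the 76, 27.8% were called there, 13.6% higher, a larger share than of the 76. Mrps22, a small subunit protein whose loss causes a human disorder, read 4.52, 4.42 and 4.32 at 2.1 mM, against 3.95, 3.48, 4.22 and 3.52 at 0 mM, without overlap, a change of 0.63 ± 0.204 (limma adjusted p = 0.0467). Mrps18b, Mrps7 and Mrpl47 were the other called rises at 0.56, 0.50 and 0.48, and Mrpl4, Mrps35, Mrpl23, Mrpl43, Mrps16 and Mrps18a the falls, from -0.78 to -0.32. The rises numbered 11 without replicate 3 of 0 mM, 2 without replicate 2 or 4 of 0 mM, and 0, 1 and 1 without replicates 1, 2 and 3 of 2.1 mM. The falls numbered 3 without replicate 2 of 0 mM or replicate 1 of 2.1 mM, 2 without replicate 4 of 0 mM, and 1 without replicate 2 or 3 of 2.1 mM.

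At 2.8 mM 5 were higher and 5 lower, again 13.2%, against 14.3% of all genes (5.68% higher, 8.6% lower). The rises were Mrps31, Mrps6, Mrpl47, Mrpl21 and Mrps18c, from 1.19 to 0.46 (the 1.19 of Mrps31 was 0.66 without replicate 1 of 0 mM), and the falls Mrpl4, Mrpl43, Mrpl10, Mrpl14 and Mrpl57, from -0.64 to -0.39. The rises numbered 14 without replicate 3 of 0 mM, 12 without replicate 1 of 3.5 mM, 8 without replicate 1 of 1.4 mM, 1 without replicate 2 or 4 of 0 mM or replicate 3 of 2.8 mM, and 0 without replicate 1 or 2 of 2.8 mM. The falls numbered 11 without replicate 1 of 2.8 mM, 3 without replicate 4 of 0 mM, and 2 without replicate 1 of 0 mM or replicate 2 or 3 of 2.8 mM. With spike level as a term no gene of the 76 was called at 1.4, 2.1 or 2.8 mM. All of these comparisons share the 4 arrays of 0 mM.

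**Figure D3:**
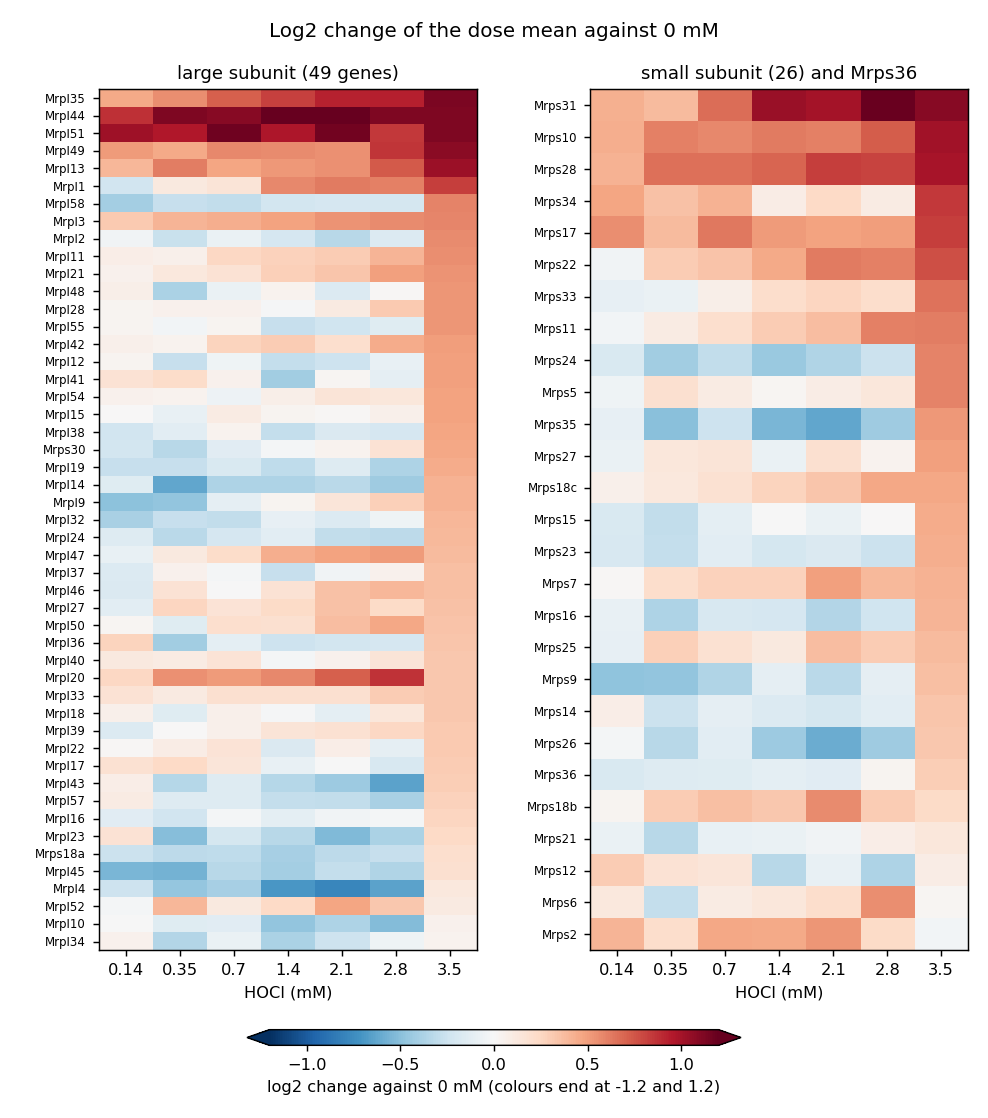
Log2 change of each dose mean against 0 mM for all 76 genes (rows, sorted within each panel by the change at 3.5 mM) by HOCl dose (columns, low to high). Red is higher and blue lower than 0 mM, and colours end at -1.2 and 1.2. The column of 3.5 mM is red for 75 of 76 genes, while columns from 0.14 to 2.8 mM hold both colours, and the top 5 rows of each panel are the 10 genes that read low on replicate 1 of 0 mM.

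The largest folds against 0 mM rested on 1 control array. The 10 genes that read low on replicate 1 of 0 mM were Mrpl13, Mrpl35, Mrpl44, Mrpl49, Mrpl51, Mrps10, Mrps17, Mrps28, Mrps31 and Mrps34. Mrpl35, a large subunit protein with a bacterial counterpart, read 5.32, 4.98 and 4.92 at 3.5 mM, against 2.23, 4.42, 4.57 and 4.55 at 0 mM. Its change of 1.13 ± 0.353 (limma adjusted p = 0.0492) became 0.56 ± 0.114 (adjusted p = 0.00394) without that array.

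Mrps31, a mitochondrion-specific protein of the small subunit, read 3.77, 3.42 and 3.06 at 3.5 mM, against 0.75, 2.80, 2.88 and 2.88 at 0 mM, and its change of 1.09 ± 0.341 (limma adjusted p = 0.0492) became 0.56 ± 0.152 (adjusted p = 0.0243). Mrpl49, also specific to mitochondria, read 4.35, 3.8 and 3.85, against 1.69, 3.14, 3.59 and 3.23, and its change of 1.09 ± 0.289 (adjusted p = 0.0212) became 0.68 ± 0.173 (adjusted p = 0.0183). In all 3 genes the other arrays of 0 mM lay close together and below all of 3.5 mM. These 3 were the only calls at 3.5 mM that reached 2-fold with all arrays, and without replicate 1 of 0 mM no called gene did. Without it 24 genes were called higher, 20 of the 23 among them, and Mrpl1, Mrps17 and Mrps28 were not. Mrpl44, a large subunit protein of the ribonuclease III family, read 4.04, 3.97 and 3.59 at 3.5 mM, against 0.34, 3.47, 3.77 and 3.41 at 0 mM, with overlap, and its change at 3.5 mM of 1.12 ± 0.521 was not called (adjusted p = 0.185).

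**Figure D4:**
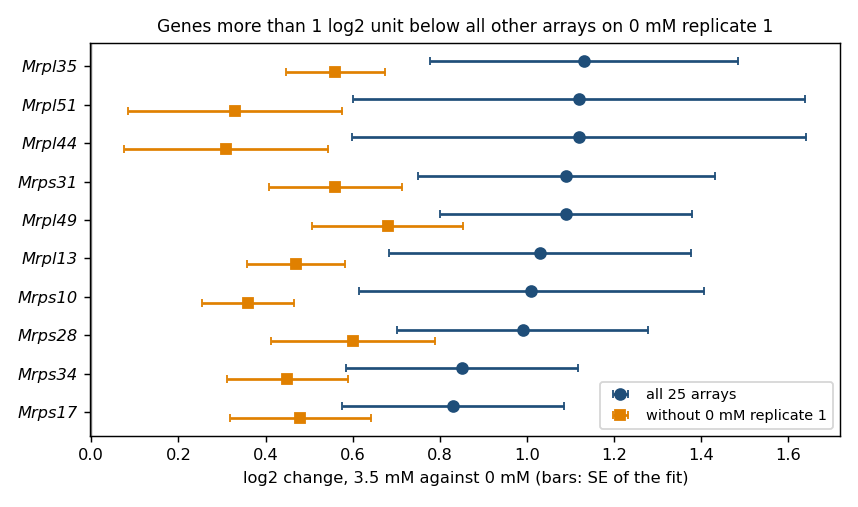
Log2 change at 3.5 mM against 0 mM (horizontal axis, bars are the SE of the limma fit) for the 10 genes that lie more than 1 log2 unit below all other arrays on replicate 1 of 0 mM. Blue circles use all 25 arrays, and orange squares leave out that replicate. Every change is smaller without it, at most 0.68, but stays above 0.

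By subunit, 12 of 49 large and 11 of 26 small subunit proteins were called higher at 3.5 mM against 0 mM, with median changes of 0.40 and 0.46. At 3.5 mM against 2.8 mM the counts were 14 of 49 and 7 of 26, with medians of 0.29 and 0.38. No member of either was lower in these comparisons, and Mrps36, now known as a part of the 2-oxoglutarate dehydrogenase complex rather than of the ribosome, was not called. Of 46 proteins with a bacterial counterpart 13 were higher against 0 mM and 11 against 2.8 mM, and of 29 without one 10 and 10. Mrps36 was counted among the 29, and Mrpl55 was placed in neither group. In the central protuberance, which faces the small subunit, 2 of 7 were higher against 0 mM and 3 of 7 against 2.8 mM. At the exit of the peptide tunnel 0 of 6 and 2 of 6, Mrpl23 and Mrpl24, were higher, and in the stalk that recruits translation factors Mrpl11 was higher against 0 mM and Mrpl10 against 2.8 mM, with Mrpl12 in neither. Subunits and regions were assigned from general knowledge, and no difference between them was tested.

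Some genes split the replicates of a dose. Mrps12, the counterpart of the bacterial protein that guards decoding accuracy, read 3.77, 2.77 and 2.87 at 3.5 mM, against 3.56, 2.53, 3.48 and 2.62 at 0 mM, a change of 0.09 ± 0.262 (limma adjusted p = 0.861). Mrpl20, a large subunit protein, read 5.73, 4.42 and 4.09, against 4.84, 3.91, 5.11 and 3.83 at 0 mM. Mrps2, of the small subunit, read 4.18, 3.55 and 3.24, against 4.28, 3.16, 4.15 and 3.15. Each was high on replicate 1 of 3.5 mM and replicates 1 and 3 of 0 mM and low on the other arrays of both doses. Mrpl20 and Mrps2 were chosen after their values were seen, and what separates these arrays was not tested. Among the genes with the highest F test p, Mrpl40, the large subunit protein whose promoter held no match, read 4.94, 4.06 and 4.09 at 3.5 mM, against 4.41, 3.57, 4.44 and 3.73 at 0 mM, with overlap (change 0.33 ± 0.243, adjusted p = 0.418). Mrpl18 and Mrpl34 likewise showed overlap, with changes of 0.32 and 0.04.

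Among genes of human mitochondrial disease, Mrps34, needed for a stable small subunit, read 5.34, 5.19 and 5.05 at 3.5 mM, against 3.16, 4.57, 4.86 and 4.79 at 0 mM, without overlap, and was called at 0.85 ± 0.266 (limma adjusted p = 0.0495). Without replicate 1 of 0 mM its change was 0.45 ± 0.138 (adjusted p = 0.0449). Mrps22 was called at 0.77 ± 0.204 (adjusted p = 0.0208). Mrps7, Mrpl3 and Mrpl12 had changes of 0.42, 0.58 and 0.49 and missed the threshold (adjusted p = 0.0909, 0.061 and 0.215). Among genes named for other reasons than disease, Mrps18a, a large subunit protein, and Mrpl45, which ties the ribosome to the inner membrane, had changes of 0.20 and 0.19 against 0 mM (adjusted p = 0.234 and 0.53). Against 2.8 mM Mrps18a was called at 0.48 ± 0.111 (adjusted p = 0.00748) and Mrpl45 was not at 0.55 ± 0.188 (adjusted p = 0.0677).

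Other probe sets of the called genes did not always move alike. At 3.5 mM against 0 mM, 13 of the 23 genes had 24 further probe sets, of which 21 changed in the same direction and 2 were called higher. At 3.5 mM against 2.8 mM, 9 of the 21 had 15 further probe sets, of which 11 changed in the same direction and 4 were called higher. Some went against the direction of the rest. For Mrps21 the brightest probe set changed by 0.14 and 0.05 in these comparisons, while its other, dimmer one was called lower at -1.14 and -1.21. A dimmer probe set of Mrpl54 was called lower at 3.5 mM against 2.8 mM, at -0.42 (limma adjusted p = 0.0258), where its brightest changed by 0.36. Mrps6 was called lower in that comparison by the mean of its probe sets, at -0.52 (adjusted p = 0.0454), and missed the threshold by its brightest, at -0.54 (adjusted p = 0.0627).

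Across the 25 arrays the 76 genes moved partly together. The median Pearson r over 2850 pairs was 0.395, and 85.1% of pairs were above 0. Every gene correlated above 0 with the mean of the others, from 0.0762 for Mrps2 to 0.935 for Mrpl28. The pairs share arrays, doses and array-wide shifts, so these values describe likeness only.

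Neighbouring genes did not always follow. Of the 67 genes with a promoter entry, 25 have another gene that starts within 1000 bases on the opposite strand. Twnk, the mitochondrial DNA helicase, starts 116 bases from Mrpl43, whose promoter is printed above. At 3.5 mM Twnk read 2.85, 1.81 and 2.22, against 3.00, 3.47 and 3.41 at 2.8 mM, all lower, a change of -1.0 ± 0.185 (limma adjusted p = 0.00166), while Mrpl43 rose by 0.94 in the same comparison. Of the 25 partners, 6 were called higher and 2 lower at 3.5 mM against 2.8 mM, with a median of 0.21. Of all genes 8.81% were higher and 5.33% lower there, with a median of 0.07. Mrpl46 and Mrps11, which start 42 bases apart, had changes of -0.04 and 0.01, neither called.

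The related gene lists were set beside the 76 genes by their counts. Of all genes 4.54% were higher and 4.83% lower at 3.5 mM against 0 mM, and 8.81% and 5.33% against 2.8 mM. Of 46 cytosolic ribosomal protein genes 1 was higher at 3.5 mM against 0 mM, and 0 were higher and 1 lower at 3.5 mM against 2.8 mM, with medians of 0.15 and 0.10. Of 82 genes for subunits of the respiratory chain and ATP synthase 17 were higher and 1 lower against 0 mM, and 28 higher and 2 lower against 2.8 mM, with medians of 0.28 and 0.27. At 0.35 mM against 0 mM 24 of these 82 were lower and none higher, beside 5 of the 76 and 5.56% of all genes lower. The difference between lists was not tested.

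Proteins of the mitochondrial ribosome with other names included Dap3 and Chchd1, both of the small subunit. Of 4 measured, 1 was higher against 0 mM and these 2 against 2.8 mM. Dap3 read 5.32, 5.61 and 5.70 at 3.5 mM, against 5.17, 5.00 and 4.93 at 2.8 mM, without overlap, a change of 0.51 ± 0.116 (limma adjusted p = 0.00688). Of 25 genes for ribosome assembly and rRNA modification 2 were higher and 1 lower against 0 mM and 8 were higher against 2.8 mM. Tfb1m, which methylates the small subunit rRNA, read 3.27, 3.64 and 3.43, against 2.50, 1.94 and 1.76 at 2.8 mM, without overlap, a change of 1.38 ± 0.204 (adjusted p = 0.000253). Rbfa, a factor for maturing the small subunit, changed by 0.87 ± 0.147 (adjusted p = 0.000815). Of 14 translation factors 2 were higher against 0 mM and 3 against 2.8 mM, among them Mrrf, which recycles ribosomes, at 0.64 ± 0.106 (adjusted p = 0.000733). Of 16 mitochondrial tRNA synthetases 1 and 4 were higher.

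**Figure D5:**
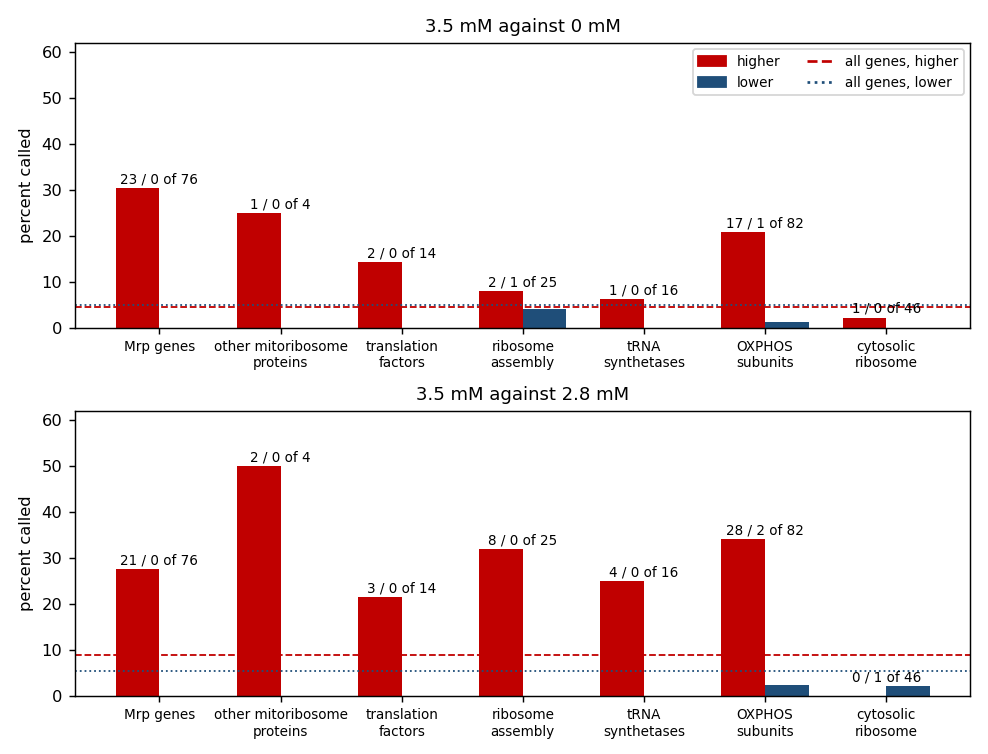
Percent of measured genes called higher (red bars) and lower (blue bars) for each gene list (horizontal axis), at 3.5 mM against 0 mM (top) and 3.5 mM against 2.8 mM (bottom). Labels give the higher and lower counts of the genes measured, and lines give the percent of all genes, dashed for higher and dotted for lower. The 76 genes (Mrp) stand at 23 and 21 higher with none lower, and the cytosolic ribosome at 1 higher in the top panel and 1 lower in the bottom one.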

How the data were processed

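RNA of 25 cultures was measured on 1 array each. Total RNA was turned into biotin-labelled cRNA, and Array Assist extracted the intensities, per the labels' protocols and design text. Per the submitters' processing notes the authors used RMA (version not given in the sources used here). They deposited 1 log2 value per probe set, the base being inferred. The file's array medians are 0 and quartiles differ, and no depth applies: the number of arrays limits the precision.

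Of 45101 probe sets 64 controls were not tested and the other 45037 were, whatever their signal. Among them 34945 carry 1 symbol (18193 genes), while 932 with several symbols and 9160 with none were tested but represent no gene. limma 3.58.1 (R 4.3.3) fitted dose means to the 25 arrays, with moderated two-sided tests (17 residual and 2.99 prior degrees of freedom) and Benjamini-Hochberg adjustment over all tested probe sets. Comparisons were of every dose with 0 mM, and of neighbouring doses from 0.14 mM up.

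The genes, the lists and their tests were chosen with earlier results of these data known. Genes were named as those with the 6 lowest and 3 highest F test p, up to 3 largest called changes per dose with arrays apart, the 5 largest changes each way at 0.35 and 2.1 mM, 12 fixed genes and up to 2 of each list, and others named here were picked after their values were seen. Of lists not described above, mitochondrial transcription and RNA maintenance had 3 of 21 higher at 3.5 mM against 0 mM and 1 higher and 1 lower against 2.8 mM, and chaperones and proteases 4 and 3 of 15 higher. The main fit did not pair the arrays by replicate number.

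Alternatives were quantile normalization, centring on array means, a filter on dim probe sets, a prior with trend and robust fitting, fitting only the doses compared, array weights, the replicate number as a block, spike level as a term or as a split, other choices of probe set and leaving out each array. Tested on simulated data at the group sizes of 3.5 against 0 mM, the fit over 45037 probe sets called 44% of changes of 1.5-fold, 85% at 2-fold and 96% at 4-fold, with 13 false calls among 168. At those of 3.5 against 2.8 mM it called 48%, 79% and 98%. The simulated arrays held no array that stands apart.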

Additional observations from a re-analysis of the deposited data

Results flagged for a closer look

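A Dixon test of the highest and lowest of the 4 arrays at 0 mM, whose critical value is 0.829, marked 9 of 33 series tested, the named genes and the mean of the 76. Chance marks about 1 in 20 independent groups, but the 9 of 33 cannot be set against that rate. Some genes were named for large changes against 0 mM, which a low array at 0 mM enlarges. All series also share these 4 arrays. Groups of 3 arrays were not tested. Replicate 1 of 0 mM was the low array for 6 genes. Mrps10 (ratio 0.973) read 1.82 there and 4.39 to 4.46 on the other 3. Mrps31 (0.960) read 0.75 and 2.80 to 2.88. Mrpl13 (0.959) read 2.75 and 4.95 to 5.04. Mrpl35 (0.934) read 2.23 and 4.42 to 4.57. Mrpl44 (0.896) read 0.34 and 3.41 to 3.77. Mrps34 (0.829, before rounding above the critical value) read 3.16 and 4.57 to 4.86. Replicate 3 was the high array for Mrpl3 (0.944), at 4.53 and 3.81 to 3.85 elsewhere, and for Mrps26 (0.893), at 5.46 and 4.98 to 5.03. Replicate 2 was the low array for Mrps35 (0.849), at 3.59 and 3.75 to 3.78 elsewhere. Over all 76 genes 10 were marked.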

How the results depend on the processing

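Counts of the 76 genes called depended on the processing, and the cause was not tested except where stated. Array weights gave more calls: higher and lower, 10 and 10 at 0.14 mM against 0 mM, 16 and 18 at 0.35 mM, 12 and 11 at 0.7 mM, 14 and 12 at 1.4 mM, 26 and 18 at 2.1 mM, 23 and 19 at 2.8 mM, 37 higher at 3.5 mM, 3 and 10 at 0.35 against 0.14 mM, 1 and 1 at 0.7 against 0.35 mM, 33 and 2 at 3.5 against 2.8 mM, and 61 by the F test. The default estimate of these weights stopped before it converged, so the gene-by-gene method was used, a choice made after that failed run. Fitting only the doses compared, with fewer arrays, gave 0 lower at 0.35 mM, 1 lower at 1.4 mM, 0 higher and 0 lower at 2.8 mM, 8 higher at 3.5 mM and 7 higher at 3.5 against 2.8 mM. With spike level as a term there were 2 lower at 0.35 mM, 0 lower at 1.4 mM, 0 and 0 at 2.1 and at 2.8 mM, 1 higher at 3.5 mM, 0 lower at 0.35 against 0.14 mM and 17 by the F test. Within the lower spike level, 2 were lower at 0.35 mM and 0 at 0.35 against 0.14 mM. Quantile normalization gave 8 lower at 0.35 mM, 1 higher and 10 lower at 1.4 mM, 10 lower at 2.1 mM, 11 lower at 2.8 mM and 1 lower at 0.35 against 0.14 mM. Centring on array means gave 9 higher at 2.8 mM and 1 lower at 0.35 against 0.14 mM. Without dim probe sets there were 1 higher at 1.4 mM, 8 at 2.1 mM and 9 at 2.8 mM, and 1 lower at 3.5 against 2.8 mM. A trended and robust prior gave 1 lower at 0.35 mM and at 1.4 mM, 1 higher and 3 lower at 2.1 mM, 2 lower at 2.8 mM and 1 lower at 0.35 against 0.14 mM. The probe set of largest variance gave 1 higher at 1.4 mM, 7 at 2.1 mM and 8 at 2.8 mM, 1 lower at 3.5 mM, 1 higher at 0.35 against 0.14 mM and 2 lower at 3.5 against 2.8 mM, and the mean of the probe sets of a gene gave 1 lower at 3.5 mM and 2 lower at 3.5 against 2.8 mM.

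With the replicate number as a block, there were 2 lower at 0.35 mM, 1 lower at 1.4 mM, 2 higher and 1 lower at 2.1 mM, 1 higher and 3 lower at 2.8 mM, 1 lower at 0.35 against 0.14 mM and 1 lower at 3.5 against 2.8 mM, with 18 higher at 3.5 mM. Same-numbered arrays did not deviate together: 19 of 84 pairs correlated above 0.1, with a median of -0.0256 and a range of -0.698 to 0.555.

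Leaving out each array in turn gave 0 to 2 higher and 0 to 9 lower at 0.35 mM, 0 to 1 lower at 0.7 mM, 0 to 4 higher and 1 to 4 lower at 1.4 mM, 0 to 11 and 1 to 9 at 2.1 mM, 0 to 14 and 2 to 11 at 2.8 mM, and 8 to 25 higher with 0 lower at 3.5 mM. It gave 0 to 4 lower at 0.35 against 0.14 mM, 11 to 27 higher and 0 to 2 lower at 3.5 against 2.8 mM, and 20 to 34 by the F test. No call was made in the other comparisons. The median change of the 76 stayed between 0.33 and 0.50 at 3.5 mM and between 0.18 and 0.44 at 3.5 against 2.8 mM in all settings run. Over 47 calls of named genes, 360 of 488 values under the other alternatives passed the threshold in the same direction, 128 missed it and 0 reversed, and with 1 array left out 942 of 1175 passed, 233 missed it and 0 reversed. Most of the 1175 leave out an array of neither dose compared. That cannot move the change, so no reversal was possible there. The same holds for 3 of the other alternatives. These are the prior with trend and robust fitting, the filter on dim probe sets and fitting only the doses compared, which leave the change as it was.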

Other observations

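Of 14 nuclear regulators of genes for mitochondrial proteins, 1 was higher and 5 were lower at 3.5 mM against 0 mM and 8 were not called, with a median change of -0.28, beside 4.54% of all genes higher and 4.83% lower. At 3.5 mM against 2.8 mM 1 was higher and 2 were lower, with a median of -0.24, beside 8.81% of all genes higher and 5.33% lower. Pprc1, a coactivator that works with NRF1, read 2.28, 0.76 and 1.28 at 3.5 mM, against 2.95, 3.56 and 3.45 at 2.8 mM and 2.94, 3.29, 3.35 and 3.21 at 0 mM. All 3 arrays of 3.5 mM lay below those of both doses. The change was -1.76 ± 0.219 (SE) against 0 mM (limma adjusted p = 3.61e-05) and -1.88 ± 0.234 against 2.8 mM (adjusted p = 4.83e-05).

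Nrf1, which encodes nuclear respiratory factor 1, read 2.29, 2.61 and 2.94 at 3.5 mM, against 1.87, 2.08 and 1.99 at 2.8 mM, without overlap. Its change was 0.63 ± 0.164 (limma adjusted p = 0.0155), and 0.58 ± 0.153 against 0 mM (adjusted p = 0.0206). Yy1, a zinc finger regulator, read 4.82, 4.55 and 4.45 at 3.5 mM, against 5.47, 5.76 and 5.8 at 2.8 mM, also without overlap, a change of -1.07 ± 0.171 (adjusted p = 0.00052). Ppargc1b, another coactivator, changed by -1.35 ± 0.242 at 3.5 mM against 0 mM (adjusted p = 0.0012) and Gabpb2, a subunit of GA-binding protein, by -1.31 ± 0.192 (adjusted p = 0.000173). Ppargc1b, Nrf1 and Yy1 were picked after their values were seen. No relation between these genes and the signals of mitochondrial ribosomal protein genes was tested.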
